A study of Mus musculus with 12 samples.

Results

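The genes described here are 5 members of the MHC class II antigen presentation pathway, chosen by gene name from a table of 55862 mouse genes. They were Ciita, the master regulator of the pathway, the chain genes H2-Aa, H2-Ab1 and H2-Eb1, and Cd74, which encodes the invariant chain. The study asked whether mouse astrocytes that form spheres on agarose come to resemble neural precursor cells, and RNA was sequenced from 12 samples, 3 in each of 4 groups. The labels give the strain of all 12 as C57BL/6, and the study's methods name C57BL/6J for the mice behind both NPC groups. ASTs were cortical astrocytes of newborn pups grown as a monolayer in serum medium (day 0). A-iSCs were the same kind of culture after 5 days as spheres on an agarose surface. P56-NPCs came from the subependymal zone of adult mice (postnatal day 56) and P0-NPCs from the hippocampus of newborn mice (postnatal day 0), each taken as a suspension of dissociated tissue with no cell sort described. Both NPC groups served as positive controls, and they differ from each other in age and in brain region at once. The labels name no transgene for any group. The methods speak of independent experiments in general, but no source used here ties the sequenced samples of a group to separate animals or cultures, so the p-values measure the spread between these samples only, which may be technical.

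MHC class II molecules are pairs of an alpha and a beta chain that carry peptides of engulfed proteins to the cell surface, where CD4+ T cells read them. In mice the classical molecules are I-A, made of H2-Aa and H2-Ab1, and I-E, made of an E alpha chain and H2-Eb1. The invariant chain CD74 holds new class II pairs together, blocks their groove and guides them to endosomes, where proteases trim it and H2-DM swaps its last fragment for a peptide. Transcription of the class II chain genes depends on CIITA, a coactivator that binds no DNA itself. It is recruited by RFX, NF-Y and CREB proteins sitting on the X and Y boxes of class II promoters. In the brain, class II is best known from border macrophages, dendritic cells and activated microglia, and astrocytes in culture can be brought to express it with interferon gamma. Mice with the b haplotype, C57BL/6 among them, carry a defective E alpha gene, and H2-Ea-ps, the gene listed in the table as its pseudogene, had 0 fragments in all 12 samples.

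Class II promoters share an X box and a Y box at a fixed distance, and the sequences are shown because Ciita acts through them. Of the 5 members, 2, H2-Aa and H2-Eb1, had a promoter in the RefSeq sequences of build GRCm38.p6 used here. The 120 bases before each annotated start are given 5′ to 3′ on the strand of the gene, H2-Aa from chr17:34287824-34287943 (minus strand) and H2-Eb1 from chr17:34305747-34305866 (plus strand). Capitals mark GCAAC, a core of the X box, and ATTGG, the Y box that NF-Y reads as CCAAT on the other strand.
H2-Aa: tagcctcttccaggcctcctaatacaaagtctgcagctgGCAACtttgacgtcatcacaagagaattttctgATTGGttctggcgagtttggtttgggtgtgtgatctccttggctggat
H2-Eb1: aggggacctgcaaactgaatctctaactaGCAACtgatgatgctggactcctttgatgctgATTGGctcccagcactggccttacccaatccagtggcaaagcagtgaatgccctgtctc
The start of the first motif lay 33 bases before that of the second in H2-Aa and 32 bases in H2-Eb1. Among all 32851 promoters, taken as the 250 bases before the start and read on both strands, 287 (0.874%) held GCAAC followed by ATTGG at 20 to 40 bases, while 29.9% held GCAAC and 33.8% held CCAAT anywhere. Of 10 further genes of class II peptide loading, all with a promoter, 3 held the pair, namely H2-Oa, H2-Ob and H2-Eb2. These matches describe letters only and say nothing about binding in these cells.

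Fragments counted on genes ranged from 17077780 to 24452419 per sample, and 3 fragments, taken as the counting floor, were worth 0.103 to 0.187 FPKM (fragments per kilobase of gene, scaled to the library) at 1 kilobase. This floor reflects counting error alone. Markers were checked against the labelled source. ASTs had 27.2 to 31.3 FPKM of the astrocyte gene Gfap, and A-iSCs had 658 to 1483. P56-NPCs had 4994 to 5660 FPKM of the myelin gene Mbp and 3.48 to 3.91 of the progenitor gene Nes. Their 5 neural progenitor markers summed to 166 to 193 FPKM, below the 687 to 843 in ASTs and the 711 to 824 in P0-NPCs, so these markers do not set P56-NPCs apart as precursors. P0-NPCs also had 566 to 728 FPKM of the neuronal gene Tubb3.

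P56-NPC replicate 3 stood apart from the other libraries. In it, 37 genes were above 3 FPKM and over 5 times every other sample, against 0 to 3 genes in each of the others. Of 14 intestinal epithelium genes, listed after this was seen, all 14 were highest there and 13 exceeded 5 times every other sample. Examples are Reg3b at 45.5 FPKM against at most 0.252 elsewhere, and Agr2 at 27.7 against at most 0.0965. Of 5 plasma cell genes, also listed afterwards, 3 were highest there and over 5 times every other sample, Igkc at 42.7 FPKM, Igha at 12.1 and Jchain at 4.51. Class II genes were among those that were high in this library. Relative to the mean of P56-NPC replicates 1 and 2, it held 7.52 times the H2-Aa, 6.19 times the H2-Eb1, 5.20 times the H2-Ab1 and 3.79 times the Cd74, but 1.12 times the Ciita. The microglial genes Csf1r (0.962), P2ry12 (1.0) and Tmem119 (1.02) were level with the other P56-NPC libraries. The border macrophage markers were not, with Lyve1 at 3.18 times, Mrc1 at 2.13 times and Cd163 at 1.77 times replicates 1 and 2. They were low, with means of 0.255, 0.591 and 0.502 FPKM in replicates 1 and 2. All 5 markers of that list were above both of these samples, but the share of all genes that were was not computed. The sum of the list also differed between replicates 1 and 2, at 3.83 and 2.08 FPKM, against 6.53 in replicate 3. Tests of the members in P56-NPCs are therefore given with and without this library, whose part in the class II levels was not tested.

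**Figure D1:**
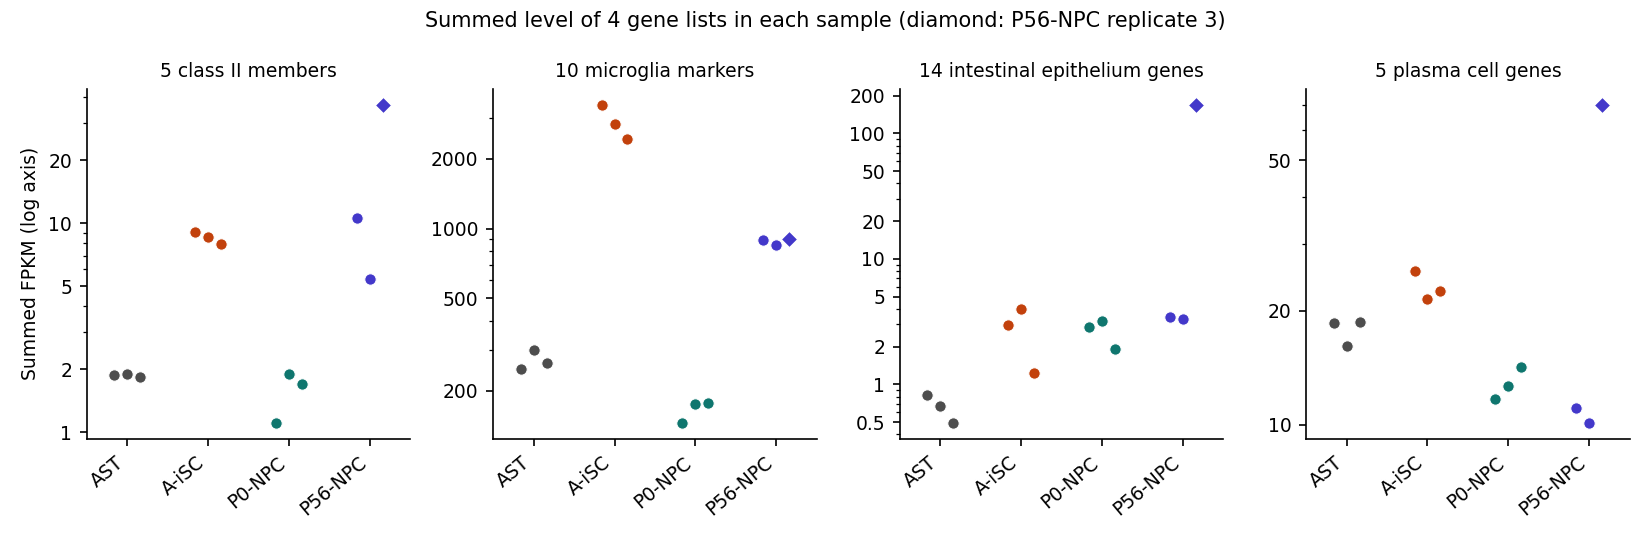
Summed FPKM (log axis) of the 5 class II members, 10 microglia markers, 14 intestinal epithelium genes and 5 plasma cell genes, 1 point per sample in ASTs, A-iSCs, P0-NPCs and P56-NPCs, with a diamond for P56-NPC replicate 3. The diamond lies at 169 FPKM of intestinal genes against 3.34 and 3.46 in the other P56-NPC samples, and at 900 for microglia markers against 896 and 846 in the others.

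The members were expressed at a low level, and in ASTs none reached 1 FPKM. Ciita (ENSMUSG00000022504, GRCm38 chromosome 16, 10480059 to 10528418, plus strand) was the lowest. Its values were 0.0313, 0.00517 and 0.0395 FPKM in AST replicates 1 to 3, resting on 5, 1 and 7 fragments. A-iSCs had 0.0937, 0.128 and 0.196 FPKM, P56-NPCs 0.0846, 0.0980 and 0.102, and P0-NPCs 0.0871, 0.0648 and 0.0419. All 9 samples of these groups lay above all 3 ASTs, and the 3 groups overlapped except that A-iSCs lay above P0-NPCs. The lowest P0-NPC (0.0419, on 11 fragments) was close to the highest AST (0.0395, on 7), and AST replicate 2 was under the floor of 3 fragments. Of all genes with at least 10 fragments, 29.0% were higher in every A-iSC than in every AST. Such shares were not computed for the other groups. Ciita shares 329 of its 9535 exon bases with Dexi, a gene on the opposite strand at 4.14 to 9.31 FPKM in every sample. Because no source used here says whether strand was used in counting, part of the Ciita fragments may belong to Dexi.

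H2-Aa, the I-A alpha chain (ENSMUSG00000036594, chromosome 17, 34282744 to 34287823, minus strand), was close to the detection limit in ASTs and P0-NPCs. AST replicates had 0, 0.0779 and 0.142 FPKM, where 0 fragments in replicate 1 allow up to 0.0471 FPKM, and P0-NPCs had 0.0691, 0.136 and 0.0669. A-iSCs had 0.718, 0.520 and 0.462 FPKM, and P56-NPCs had 0.956, 0.197 and 4.33. The 3 A-iSCs lay close together between the lowest and the middle P56-NPC sample, and above every AST and P0-NPC sample.

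H2-Ab1, the I-A beta chain (ENSMUSG00000073421, chromosome 17, 34257689 to 34269419, plus strand), had the highest ratio of A-iSCs to ASTs among the members. ASTs had 0.186, 0.269 and 0.252 FPKM and A-iSCs had 2.01, 2.82 and 3.30. P0-NPCs had 0.511, 0.589 and 0.424 FPKM and P56-NPCs 1.46, 0.825 and 5.93. Without P56-NPC replicate 3, the order of the groups had no overlap between neighbours, with A-iSCs highest, then P56-NPCs, P0-NPCs and ASTs.

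H2-Eb1, the I-E beta chain (ENSMUSG00000060586, chromosome 17, 34305867 to 34316674, plus strand), did not follow this order. Its values were 0.736, 0.939 and 0.609 FPKM in ASTs and 0.613, 0.454 and 0.787 in A-iSCs. P0-NPCs had 0.157, 0.459 and 0.280 FPKM and P56-NPCs 1.72, 0.833 and 7.90. ASTs and A-iSCs overlapped throughout, and P0-NPCs were the lowest group, below every AST. The antisense gene Gm20513 overlaps the H2-Eb1 locus but shares 0 exon bases with it and was at 0 in 11 of 12 samples.

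Cd74, the invariant chain (ENSMUSG00000024610, chromosome 18, 60803848 to 60812652, plus strand), had the highest mean FPKM of the members in every group. ASTs had 0.924, 0.617 and 0.802 FPKM and P0-NPCs 0.286, 0.655 and 0.887, which overlap. A-iSCs had 5.58, 4.68 and 3.20 FPKM and P56-NPCs 6.31, 3.45 and 18.5, which overlap as well. Between these pairs of groups there was a gap from 0.924 to 3.20 FPKM that no sample filled.

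**Figure D2:**
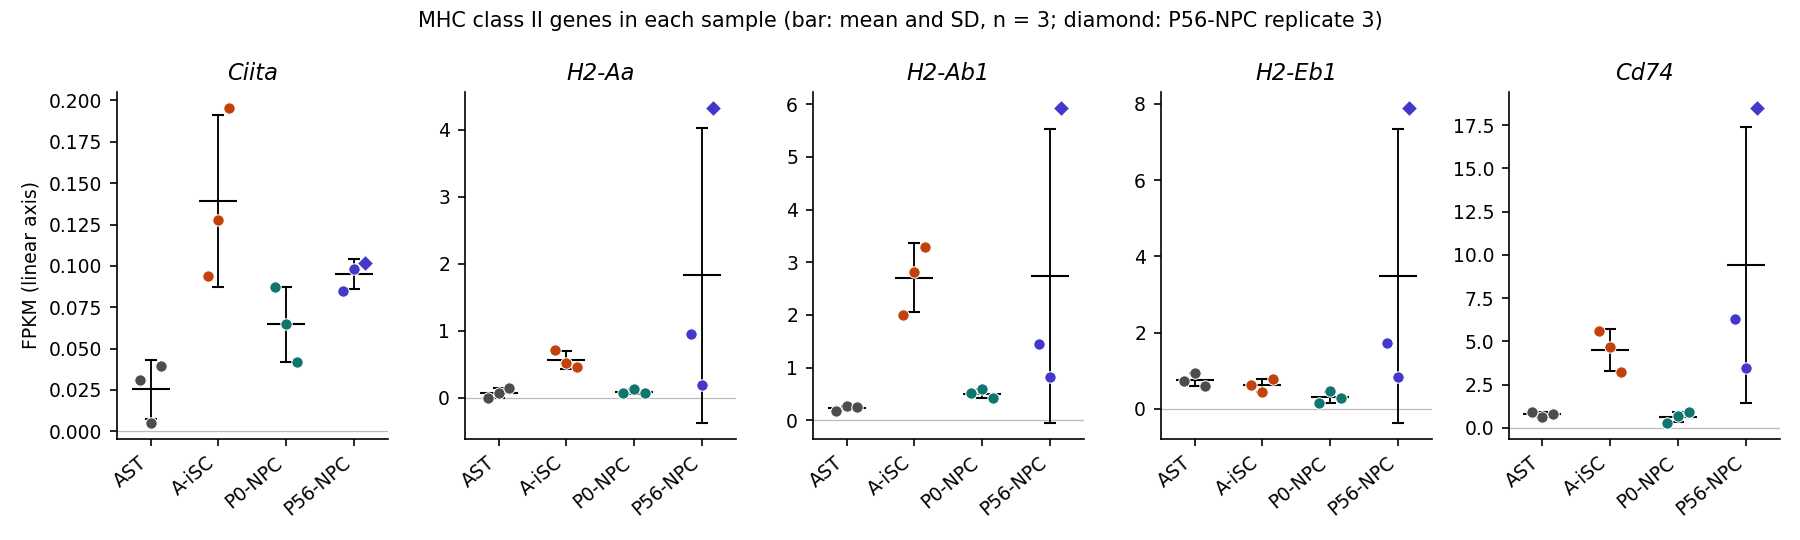
FPKM (linear axes, 1 per gene) of the 5 members in each sample, with bars for the mean and SD of 3 samples and a diamond for P56-NPC replicate 3. A-iSCs lie above ASTs for Ciita, H2-Aa, H2-Ab1 and Cd74 but not for H2-Eb1, and the diamond is the highest sample for the 3 chains and Cd74 but not for Ciita.

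A-iSCs were compared with ASTs, from which they differ in sphere culture and in 5 further days of incubation at once. No monolayer kept for 5 days was among the samples, so these cannot be told apart. Cd74 rose from 0.781 ± 0.154 FPKM (SD, n = 3) to 4.49 ± 1.20 and H2-Ab1 from 0.235 ± 0.0438 to 2.71 ± 0.651, which are ratios of 5.75 and 11.5. On log2(FPKM + 1), a scale that understates changes of low genes, limma gave log2 fold changes of 1.60 (SE 0.18, adjusted p = 0.00029) for Cd74 and 1.57 (SE 0.15, adjusted p = 0.00014) for H2-Ab1. These 2 members were the ones tested, since the others stayed under a mean of 1 FPKM in both groups, and both passed that filter only through A-iSCs. In this test 54.8% of all genes were called in either direction and 25.2% were higher and 29.6% lower in A-iSCs. To take in the low members, limma-voom was run on the fragments recovered from the FPKM, over genes with at least 10 fragments in the 6 samples, a limit chosen after the data were seen. It called 4 of the 5 members higher in A-iSCs, against 23.0% of all genes tested called higher. Their log2 fold changes were 3.52 (SE 0.81, adjusted p = 0.0066) for H2-Aa, 3.46 (SE 0.39, adjusted p = 0.00011) for H2-Ab1, 2.66 (SE 0.67, adjusted p = 0.010) for Ciita and 2.47 (SE 0.34, adjusted p = 0.00039) for Cd74. H2-Eb1 was the exception, at 0.761 ± 0.166 FPKM in ASTs and 0.618 ± 0.166 in A-iSCs (log2 fold change -0.31, SE 0.34, adjusted p = 0.49). The same 4 members were higher in every A-iSC than in every AST, as were 29.0% of all genes with at least 10 fragments. In these bulk samples more or fewer cells of a type and more or less RNA per cell cannot be told apart.

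Against P0-NPCs, A-iSCs were higher for the same 4 members. By limma-voom the log2 fold changes were 2.90 (SE 0.41, adjusted p = 0.00018) for Cd74, 2.59 (SE 0.43, adjusted p = 0.00049) for H2-Aa, 2.40 (SE 0.31, adjusted p = 8.58e-05) for H2-Ab1 and 1.13 (SE 0.43, adjusted p = 0.046) for Ciita, where 24.5% of all genes were called higher. Ciita was not called by limma on FPKM with no filter (adjusted p = 0.13). H2-Eb1 averaged 0.618 FPKM in A-iSCs and 0.299 ± 0.152 in P0-NPCs with overlapping samples (log2 fold change 1.09, SE 0.45, adjusted p = 0.063). With limma on FPKM, which tested Cd74 and H2-Ab1 through their A-iSC level alone, both were called, at 1.76 (SE 0.21) and 1.28 (SE 0.15) and adjusted p = 0.00017 and 0.00018, where 65.1% of genes were called and 31.5% were higher.

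Against P56-NPCs, 0 of the 4 members tested by limma were called at an adjusted p under 0.05, and 0 of 5 by limma-voom, where 61.0% and 50.3% of all genes were called in either direction. At an unadjusted p under 0.05 these counts were 0 of 4 and 1 of 5, the latter H2-Eb1. P56-NPC means were 9.43 ± 8.0 FPKM for Cd74, 3.48 ± 3.85 for H2-Eb1, 2.74 ± 2.79 for H2-Ab1 and 1.83 ± 2.20 for H2-Aa, with SDs near or above the mean. The limma-voom differences of A-iSCs from P56-NPCs were -1.88 (SE 0.82) for H2-Eb1, -0.79 (SE 0.92) for H2-Aa, -0.78 (SE 0.54) for Cd74, 0.47 (SE 0.57) for H2-Ab1 and 0.50 (SE 0.38) for Ciita. Without P56-NPC replicate 3 the differences were -0.13 (SE 0.34) for Cd74, 0.29 (SE 0.60) for H2-Aa and 0.56 (SE 0.47) for Ciita, none of them called. Without P56-NPC replicate 3, H2-Ab1 was called higher in A-iSCs, at 1.27 (SE 0.37, adjusted p = 0.025) by limma-voom, where 18.3% of genes were called higher, and at 0.79 (adjusted p = 0.021) by limma on FPKM, where 25.0% were. H2-Eb1 then stood at -0.99 (SE 0.44, adjusted p = 0.10), and its values in all 3 A-iSCs were below those in all 3 P56-NPCs. By limma on FPKM it was called lower in A-iSCs with all 4 groups in the model (-1.13, adjusted p = 0.032) and without P56-NPC replicate 2 (-1.61, adjusted p = 0.036).

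P56-NPCs were higher than ASTs for Cd74, at 2.27 (adjusted p = 0.0037), and for H2-Ab1, at 1.35 (adjusted p = 0.027), by limma on log2(FPKM + 1). Without P56-NPC replicate 3, Cd74 stood at 1.68 (adjusted p = 0.00070). All 4 members tested passed the filter through P56-NPCs alone, and 78.9% of genes were called, 39.1% higher and 39.8% lower. The H2-Ab1 call was lost without AST replicate 1, 2 or 3 (adjusted p = 0.064, 0.057 and 0.059) and with no filter (0.061), although it held without P56-NPC replicate 3, at 0.78 (adjusted p = 0.0029), where 38.0% of genes were called higher. By limma-voom 3 of 5 members were called higher, Cd74 (3.25, SE 0.83, adjusted p = 0.0063), H2-Ab1 (2.99, SE 0.94, adjusted p = 0.018) and Ciita (2.16, SE 0.59, adjusted p = 0.0088), where 38.1% of genes were called higher. Without P56-NPC replicate 3 the differences became 2.60 (SE 0.37, adjusted p = 0.00034) for Cd74, 2.19 (SE 0.39, adjusted p = 0.0013) for H2-Ab1 and 2.11 (SE 0.66, adjusted p = 0.021) for Ciita. H2-Aa moved from 4.31 (SE 1.91, adjusted p = 0.070) to 3.23 (SE 1.16, adjusted p = 0.037), so that 4 of 5 members were called, against 36.9% of genes called higher. The ratio of mean FPKM for H2-Aa fell from 25.0 to 7.87, that for Cd74 from 12.1 to 6.25 and that for H2-Ab1 from 11.6 to 4.85. H2-Eb1 was not called with the library (1.57, SE 0.81, adjusted p = 0.11) or without it (0.67, SE 0.38, adjusted p = 0.15).

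P56-NPCs were also higher than P0-NPCs, a comparison of 2 ages and 2 regions. limma on FPKM called Cd74 (2.44, adjusted p = 0.0021) and H2-Eb1 (1.45, adjusted p = 0.032) among 4 members tested, which all passed the filter of 1 FPKM through P56-NPCs alone, where 78.8% of genes were called and 39.7% were higher. H2-Eb1 was no longer called without any single P0-NPC replicate (adjusted p = 0.085, 0.061 and 0.081). By limma-voom the 3 chains and Cd74 were called, against 32.3% of genes called higher, at 3.68 (SE 0.82, adjusted p = 0.0023) for Cd74, 3.38 (SE 1.31, adjusted p = 0.042) for H2-Aa, 2.96 (SE 0.94, adjusted p = 0.017) for H2-Eb1 and 1.93 (SE 0.66, adjusted p = 0.025) for H2-Ab1. By limma on FPKM without P56-NPC replicate 3, Cd74 stood at 1.84 (adjusted p = 0.00041) and H2-Eb1 at 0.79 (adjusted p = 0.0081), and H2-Ab1 was now called (0.49, adjusted p = 0.021, against 1.06 and 0.056 with it), where 38.7% of genes were called higher. By limma-voom without it the 4 members stayed called at 3.02 (SE 0.42), 2.30 (SE 0.69), 2.07 (SE 0.47) and 1.13 (SE 0.33), where 31.1% of genes were called higher. Ciita differed by 0.63 (SE 0.37, adjusted p = 0.16) with the library and 0.58 (SE 0.44, adjusted p = 0.28) without it.

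Between the 2 groups of newborn origin the members went both ways. No member reached a mean of 1 FPKM in P0-NPCs or ASTs, so limma on FPKM tested none of the 5, where 79.0% of the genes it tested were called and 40.9% were lower. limma-voom called H2-Ab1 (1.06, SE 0.34, adjusted p = 0.016) and Ciita (1.53, SE 0.63, adjusted p = 0.049) higher in P0-NPCs and H2-Eb1 lower (-1.40, SE 0.40, adjusted p = 0.0097), where 38.5% of genes were called higher and 31.7% lower. The beta chains of I-A and I-E thus differed in opposite directions. H2-Aa (0.94, SE 0.86, adjusted p = 0.35) and Cd74 (-0.43, SE 0.41, adjusted p = 0.37) were not called. With no filter, limma on FPKM called H2-Ab1 higher (0.29, adjusted p = 0.013) and H2-Eb1 lower (-0.44, adjusted p = 0.022), but not Ciita (adjusted p = 0.14). There 26.3% of all genes were higher and 21.1% lower.

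**Figure D3:**
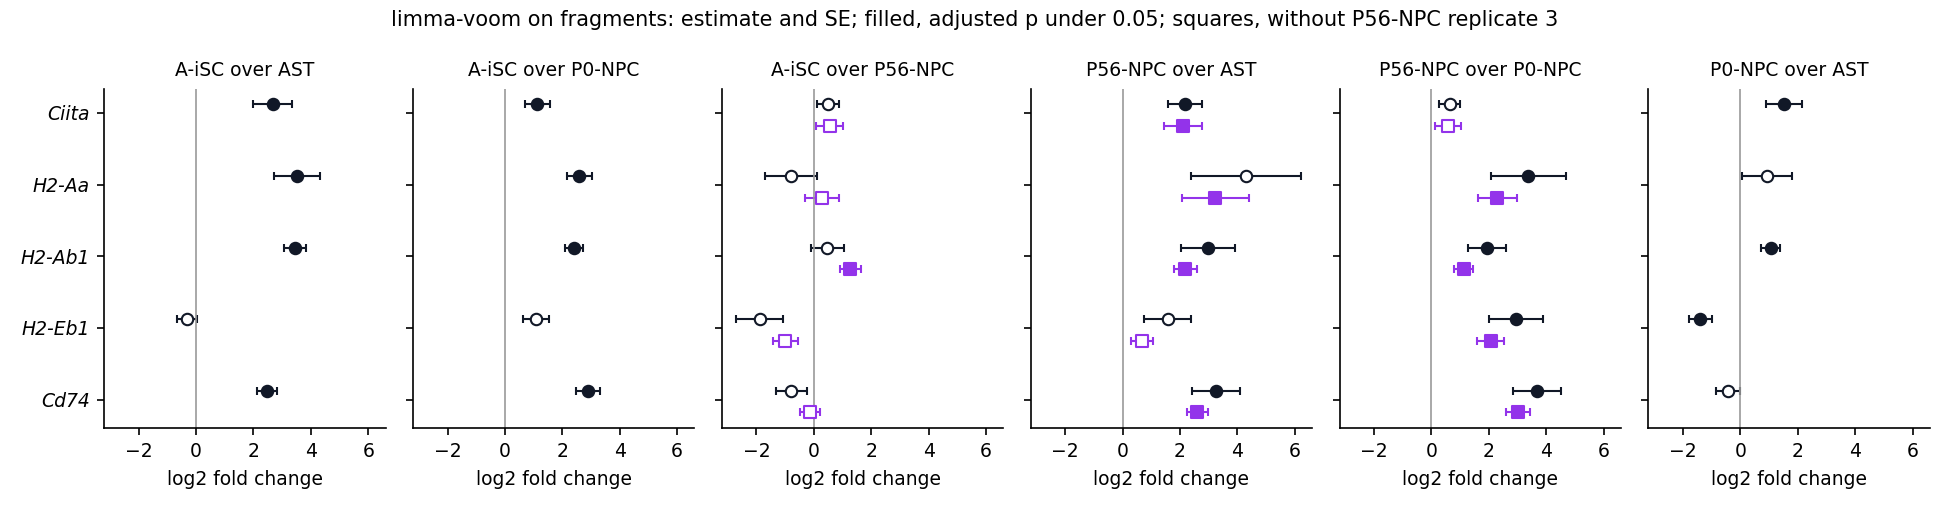
log2 fold changes with their SE for the 5 members (rows) in 6 comparisons (panels), from limma-voom on recovered fragments, with filled symbols for an adjusted p under 0.05. Circles use all 6 samples and squares leave out P56-NPC replicate 3, where Cd74 against ASTs goes from 3.25 to 2.60 and H2-Ab1 in A-iSCs over P56-NPCs goes from 0.47 to 1.27. H2-Eb1 is near 0 in A-iSCs over ASTs (-0.31) and is the lowest member in P0-NPCs over ASTs (-1.40).

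The balance between the beta chains was taken within each sample, where scaling between libraries cancels. The FPKM ratio of H2-Eb1 to H2-Ab1 was 3.96, 3.49 and 2.42 in ASTs and 0.305, 0.161 and 0.239 in A-iSCs. It was 1.18, 1.01 and 1.33 in P56-NPCs and 0.308, 0.781 and 0.660 in P0-NPCs. No 2 groups overlapped in this ratio, although the lowest P0-NPC (0.308) was close to the highest A-iSC (0.305). P56-NPC replicate 3 (1.33) lay near the other P56-NPCs here, unlike in the levels of either gene. For each of the 6 pairs of groups the exact two-sided permutation p was 0.1, the smallest that 3 samples against 3 allow, and 0.206 after Benjamini-Hochberg adjustment over 33 such tests of ratios.

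Set against Csf1r, the growth factor receptor that microglia and other macrophages need, the members behaved differently from each other. The ratio of H2-Ab1 to Csf1r was 0.0310 ± 0.00576 (SD, n = 3) in ASTs and 0.0324 ± 0.0126 in A-iSCs (exact permutation p = 1), so both genes were higher in A-iSCs by about the same factor. Cd74 to Csf1r went from 0.103 ± 0.0230 to 0.0508 ± 0.00682 and H2-Eb1 to Csf1r from 0.102 ± 0.0291 to 0.00729 ± 0.00286, each without overlap (exact permutation p = 0.1, adjusted 0.206). In P56-NPCs the ratio of Cd74 to Csf1r was 0.0819 and 0.0447 in replicates 1 and 2 and 0.249 in replicate 3. That of H2-Ab1 to Csf1r was 0.0189, 0.0107 and 0.0799, with replicates 1 and 2 below every A-iSC, the lowest of which stood at 0.0193.

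**Figure D4:**
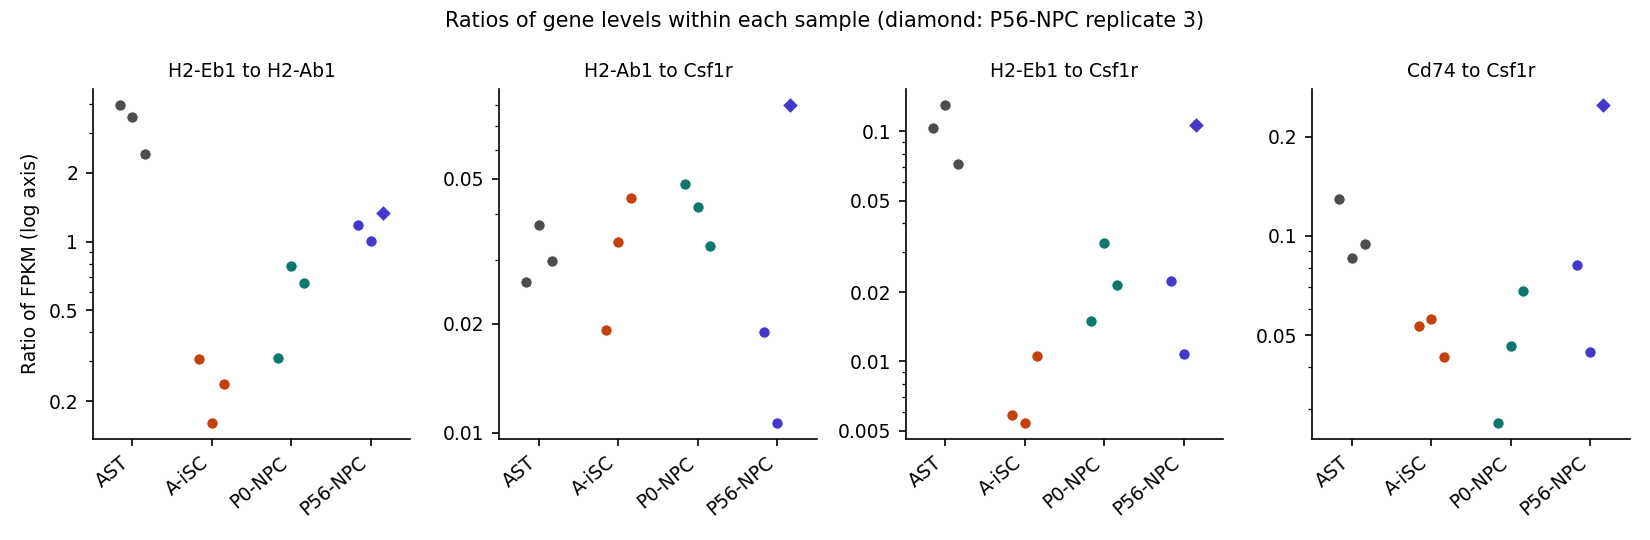
Ratios of FPKM within each sample (log axes), 1 point per sample, for H2-Eb1 to H2-Ab1 and for H2-Ab1, H2-Eb1 and Cd74 to Csf1r, with a diamond for P56-NPC replicate 3. H2-Eb1 to H2-Ab1 separates the groups, from a mean of 3.29 in ASTs to 0.235 in A-iSCs, while H2-Ab1 to Csf1r overlaps between them.

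The genes that prepare class II molecules for peptides were followed as a list of 10, which comprises the proteases Ctss, Lgmn and Ctsl, the thiol reductase Ifi30, the peptide editor H2-DM (H2-DMa, H2-DMb1, H2-DMb2), its brake H2-O (H2-Oa, H2-Ob) and H2-Eb2, a further E beta gene. In A-iSCs over ASTs, 4 of the 5 tested by limma rose and 0 fell, with a median log2 fold change of 1.18 against -0.06 over all genes tested, of which 25.2% were called higher. Ctss, the protease that trims the invariant chain, rose most of the 5 tested, from 75.2 ± 6.87 FPKM (SD, n = 3) to 978 ± 70.2 (log2 fold change 3.69, SE 0.15, adjusted p = 5.07e-06). Lgmn, a legumain that opens proteins for processing, went from 85.4 ± 0.655 to 345 ± 28.9 FPKM, and Ctsl, which trims the invariant chain in thymic epithelium, from 91.4 ± 5.16 to 157 ± 11.8. The chains of H2-DM parted. H2-DMb1 rose from 1.32 ± 0.203 to 4.30 ± 0.930 FPKM (1.18, SE 0.15, adjusted p = 0.00060), whereas H2-DMa stood at 3.81, 3.92 and 3.84 FPKM in ASTs and 5.50, 3.87 and 3.38 in A-iSCs (0.09, SE 0.16, adjusted p = 0.65), a difference that turned to -0.013 with upper-quartile scaling and to -0.073 without A-iSC replicate 1.

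H2-DMb2, H2-Oa and H2-Ob lay under the filter of 1 FPKM and were called higher in A-iSCs by limma-voom, where 23.0% of all genes were. They reached its 10 fragments through A-iSCs alone. H2-Ob had 0.0443, 0.00917 and 0.0300 FPKM in ASTs and 0.406, 0.305 and 0.485 in A-iSCs (log2 fold change 3.82, SE 0.59, adjusted p = 0.00070). H2-DMb2, H2-Oa and H2-Ob rested on 4, 4 and 8 fragments in all ASTs together, against 60, 42 and 153 in A-iSCs. Ifi30 (0.222 FPKM in A-iSCs, 0.151 in ASTs) was not called, and H2-Eb2 had at most 0.0405 FPKM in any sample.

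P0-NPCs were below ASTs for all 5 tested (median -1.32), where 40.9% of all genes were lower. P56-NPCs were above P0-NPCs for all 5 (median 1.25), where 39.7% were higher. For Ctsl the latter difference (0.23, adjusted p = 0.022) turned to -0.37 with library size scaling. It was then called in the opposite direction (adjusted p = 0.0025), where 61.2% of all genes were lower. Without P56-NPC replicate 3 Ctsl was not called (0.19, adjusted p = 0.075). In P0-NPCs, H2-DMa and H2-DMb1 averaged under 1 FPKM and were tested through the other group alone. A-iSCs were above P0-NPCs for all 5 (median 2.59), where 31.5% of all genes were higher, and above P56-NPCs for Ctss, Lgmn and Ctsl (median of the 5 tested 1.34, where 30.1% of all genes were higher), while H2-DMa (0.39, adjusted p = 0.065) and H2-DMb1 (0.41, adjusted p = 0.071) were not called. Without P56-NPC replicate 3, H2-DMb1 was called there by limma (0.54, adjusted p = 0.045) but not by limma-voom (0.67, adjusted p = 0.092), and the other limma calls on P56-NPCs in this list kept direction and side of the threshold apart from Ctsl against P0-NPCs. Over ASTs, P56-NPCs were higher for Ctss (1.62), H2-DMb1 (0.77) and Lgmn (0.66) and lower for Ctsl (-1.71) and H2-DMa (-0.30), where 78.9% of all genes were called. H2-O showed another order, with the highest means in P56-NPCs. H2-Oa was at 1.06, 0.886 and 0.820 FPKM in P56-NPCs and 0.388, 0.448 and 0.424 in A-iSCs, lower in A-iSCs by limma-voom with P56-NPC replicate 3 (-1.11, SE 0.33, adjusted p = 0.021) and without it (-1.19, SE 0.39, adjusted p = 0.038). H2-Ob was at 0.482, 0.730 and 0.621 FPKM in P56-NPCs, overlapping A-iSCs (-0.61, SE 0.28, adjusted p = 0.11, and -0.58 without P56-NPC replicate 3). These genes were not raised in P56-NPC replicate 3, which had 0.841 times the H2-Oa and 1.02 times the H2-Ob of replicates 1 and 2.

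**Figure D5:**
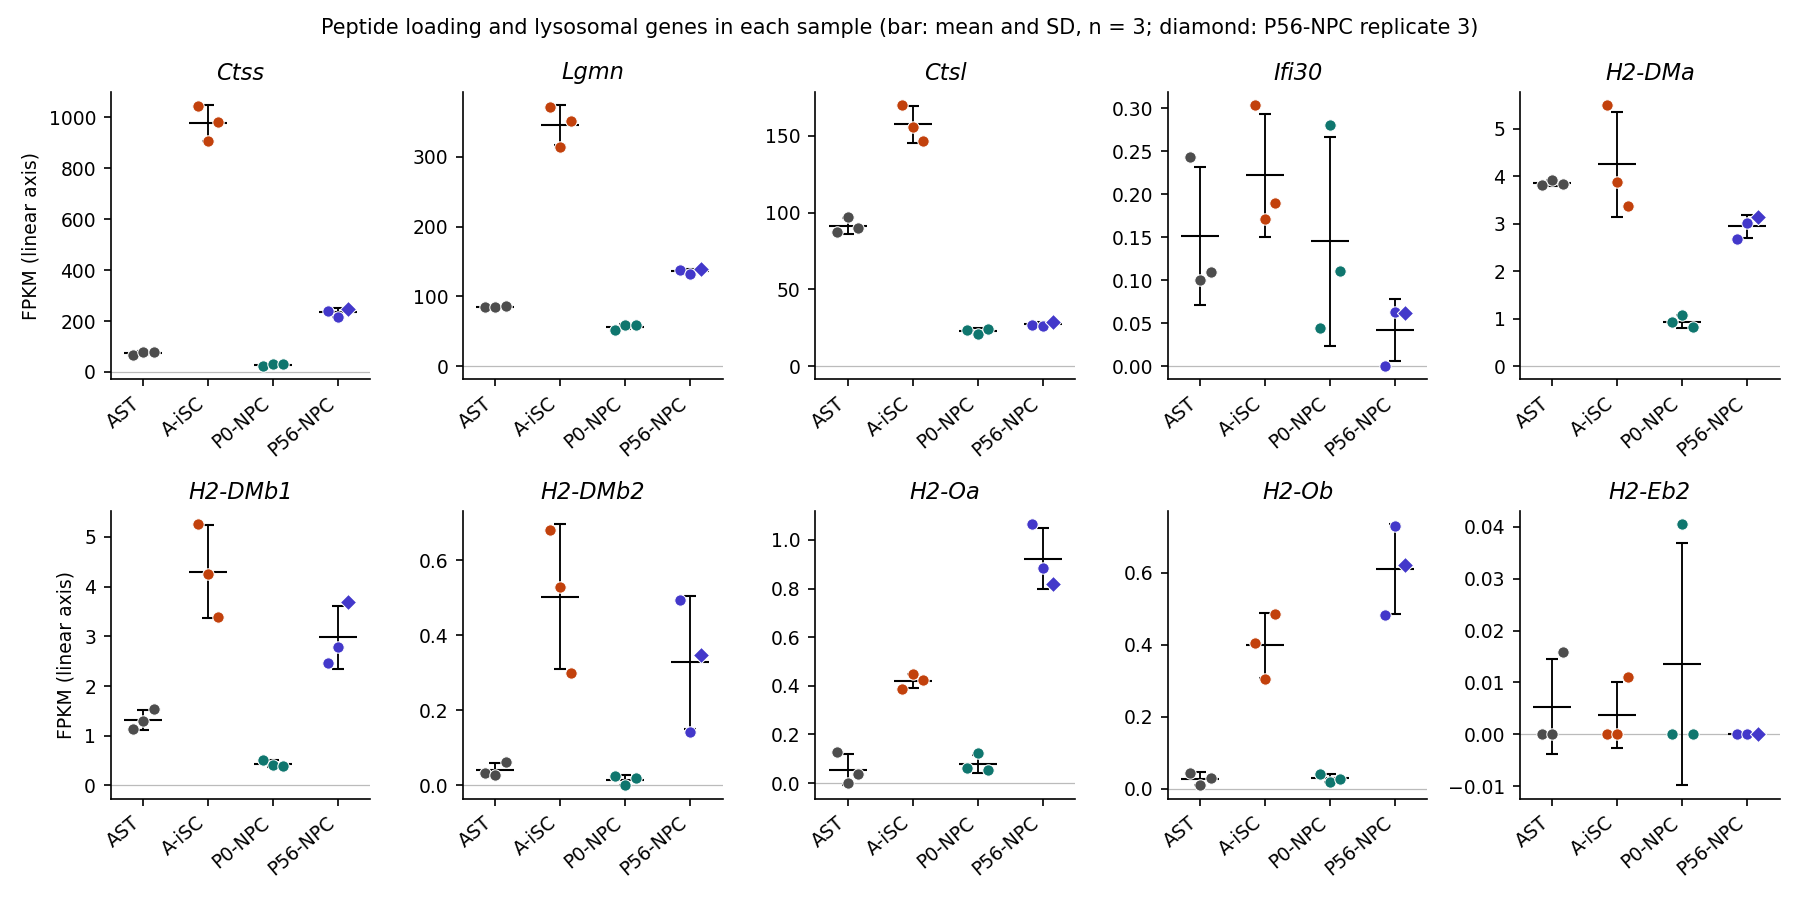
FPKM (linear axes, 1 per gene) of 10 peptide loading and lysosomal genes in each sample, with bars for the mean and SD of 3 samples and a diamond for P56-NPC replicate 3. Ctss, Lgmn and Ctsl are highest in A-iSCs, H2-Oa is highest in P56-NPCs, and the diamond stays close to the other P56-NPCs for Ctss, Lgmn and H2-DMa.

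Upstream of the members, the DNA-binding factors of class II promoters moved little and in both directions. Of 6 tested in A-iSCs over ASTs, 3 were higher and 2 lower (median 0.15), where 25.2% of all genes were higher and 29.6% lower. Rfxank (0.53, adjusted p = 0.041) and Rfx5 (0.47, adjusted p = 0.017), 2 subunits of RFX, and Creb1 (0.51, adjusted p = 0.013) were higher by limma, and the third subunit Rfxap (-0.50, adjusted p = 0.013) and Nfyc of NF-Y (-0.45, adjusted p = 0.012) were lower. The Rfxank call was lost with upper-quartile scaling (adjusted p = 0.081) and the Rfxap call with library size scaling (adjusted p = 0.087). Rfxank was also lost without any single AST or without A-iSC replicate 1 or 2 (adjusted p = 0.053 to 0.13), Rfxap without AST replicate 1 (0.061) and Rfx5 without AST replicate 2 (0.052). The seventh factor, Nfya of NF-Y, was under the filter, at no more than 0.963 FPKM in any sample.

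The interferon gamma route, which induces Ciita in many cells, had its ligand gene Ifng at 0 in all ASTs and A-iSCs and at no more than 0.0469 FPKM elsewhere. Of 7 genes of the route tested in A-iSCs over ASTs, 4 were higher and 0 lower (median 0.49), against the same shares of 25.2% and 29.6% over all genes. Among them, the transcription factor gene Irf1, at 3.05, 3.70 and 2.94 FPKM in ASTs and 7.47, 6.97 and 4.70 in A-iSCs (0.79, SE 0.17, adjusted p = 0.0067), was higher, as were the kinase gene Jak2 (0.50, adjusted p = 0.039) and the receptor gene Ifngr1 (0.45, adjusted p = 0.015). The feedback inhibitor Socs1 was not called (0.49, adjusted p = 0.062). The Jak2 call was lost with upper-quartile scaling (0.092), without any single AST (0.064 to 0.11) and without A-iSC replicate 2 (0.052).

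Of the co-stimulatory and inhibitory ligands that T cells read beside class II, 4 of 5 tested rose from ASTs to A-iSCs and 1 fell (median 1.40), where 25.2% of all genes were higher and 29.6% lower. Cd86 and Icosl were tested through their A-iSC level alone. Cd86 went from 0.389 ± 0.0702 to 5.27 ± 0.300 FPKM (SD, n = 3), Icosl from 0.271 ± 0.0519 to 3.62 ± 0.603 and the inhibitory ligand Cd274 (PD-L1) from 1.18 ± 0.218 to 4.76 ± 0.625. Icam1 made up the fourth, at 0.35 (adjusted p = 0.020). Cd80, the partner of Cd86, went the other way, from 7.08 ± 0.0564 to 1.02 ± 0.180 FPKM (-2.01, SE 0.11, adjusted p = 1.15e-05). Cd40, which receives help from T cells, was under the filter in both groups, at 0.144 and 0.138 FPKM.

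Markers of cells that can carry class II were followed beside these results. All 10 microglia markers rose from ASTs to A-iSCs, with a median log2 fold change of 3.11, where 25.2% of all genes were higher, though P2ry12 and Trem2 were tested through A-iSCs alone. Their summed level was 2445 to 3413 FPKM in A-iSCs, 846 to 900 in P56-NPCs, 248 to 300 in ASTs and 146 to 177 in P0-NPCs. Among the defining markers, Csf1r was at 7.15 to 8.47 FPKM in ASTs and 74.3 to 104 in A-iSCs, and P2ry12 at 0.523 to 0.761 and 5.48 to 9.23. P2ry12 was higher still in P56-NPCs, at 60.0 to 60.3 FPKM. The 5 border macrophage markers summed to 24.2 to 38.1 FPKM in A-iSCs, 5.18 to 8.59 in ASTs, 2.08 to 6.53 in P56-NPCs and 35.0 to 43.5 in P0-NPCs. In A-iSCs the sum came mostly from Pf4, which rose over ASTs by 2.60 (adjusted p = 8.7e-05), while Cbr2 fell (-1.10, adjusted p = 0.029). Of the defining markers, Mrc1 was at 0.685 to 0.878 FPKM in A-iSCs and 0.131 to 0.178 in ASTs, and Cd163 and Lyve1 were at no more than 0.0510 FPKM in A-iSCs, and in P0-NPCs at 1.42 to 1.91 and 5.98 to 10.9.

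Lymphocyte and dendritic cell markers were low. The 5 B cell markers summed to 0.470 to 1.35 FPKM in A-iSCs, 0.130 to 0.233 in ASTs, 0.671 to 1.70 in P56-NPCs and 0.743 to 1.44 in P0-NPCs, with the defining marker Ms4a1 at no more than 0.0101 in any sample. The 4 T and NK cell markers summed to 0.399 to 0.984 FPKM in P56-NPCs, highest in replicate 3, and to at most 0.238 in the other groups, with Cd3e at no more than 0.0305. The dendritic cell marker Flt3 did not exceed 0.151 FPKM, and the 7 markers of that list summed to 1.88 to 2.42 in A-iSCs, 1.98 to 2.17 in P0-NPCs, 1.13 to 1.28 in P56-NPCs and 0.661 to 1.01 in ASTs. Itgax, which microglia can also express, gave 0.575 to 1.04 of this sum in A-iSCs and 0.0448 to 0.0869 in ASTs. Astrocyte markers rose as well, 5 of 5 in A-iSCs over ASTs (25.2% of all genes higher), from a sum of 91.8 to 104 to one of 1114 to 2318 FPKM. The part of any of these cells in the class II levels was not tested.

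The genes whose pattern over the 12 samples was most like that of the 3 chains, by Pearson's r with their mean log2(FPKM + 1) among 16564 genes, were Jchain (0.916), 2610528A11Rik (0.913), Igkc (0.896), Mir7072 (0.892) and Spink4 (0.889). All 5 had their highest value in P56-NPC replicate 3. Jchain, for example, was at 4.51 FPKM there and at most 0.611 in the other 11 samples. With a pseudocount of 0.1, with Spearman's correlation or without P56-NPC replicate 2, 0 of these 5 remained among the closest 5. Without P56-NPC replicate 3, 0 remained as well, and the closest 5 were then Gm49614, Gm28913, Zfp874b, Slc22a4 and Gm9905 (r from 0.938 to 0.954 over 11 samples). Of these the most abundant was Slc22a4, a carnitine and ergothioneine transporter, at 1.56 to 2.05 FPKM in ASTs, 12.1 to 19.1 in A-iSCs, 10.6 to 12.5 in P56-NPCs and 1.30 to 1.82 in P0-NPCs.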

How the data were processed

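The authors deposited 1 table of FPKM for 12 samples, made from NEBNext Ultra libraries sequenced as paired ends, with gene positions and lengths. Positions matched GENCODE M21 (GRCm38) for 54899 of 55154 shared identifiers, although the submitters' notes name Bowtie 0.12.2 and build mm8. FPKM multiplied by gene length was a whole multiple of 1 step per sample (tolerance 0.05) for 100% of values, which gave fragments per gene. The authors had already scaled the values between samples, by 0.744 to 1.218 times the fragments counted.

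limma 3.58.1 (R 4.3.3, lmFit, eBayes with trend) was run on log2(FPKM + 1) for 2 groups at a time, as in the paper, which names DESeq2, not run here. Genes needed a mean of at least 1 FPKM in a group, and a call meant p under 0.05 after Benjamini-Hochberg adjustment over all genes. Ratios used exact permutation tests (scipy 1.17.1). Python 3.11.15 with pandas 2.3.3, numpy 2.4.6 and matplotlib 3.10.9 served the rest, and the fits were tested on simulated data. Replicate numbers were not used to pair the samples in the main tests, and whether they do pair them was not settled.

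The 5 members and the gene lists were chosen with earlier results of these data known. Named were the members, all 10 peptide loading genes, up to 4 genes of each other list by size of change, the first 3 of a marker list, and the 5 genes most like the chains. limma-voom with at least 10 fragments, the ratio tests, the motif spacing, the intestinal and plasma cell lists, H2-Ea-ps, Ifngr1, Nfyc, Icam1, Nfya, Pf4, Cbr2, Trem2 and Slc22a4 were chosen after values were seen. Alternatives were another pseudocount, no filter, other scalings, all 4 groups in 1 model, a replicate block, limma-voom and leaving out single samples. No sample was left out of the main tests. Some genes of the lists are not reported here.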

Additional observations from a re-analysis of the deposited data

How the results depend on the processing

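Each member count was recomputed under the alternatives. In A-iSCs over ASTs 2 members were called, and 4 with no filter (14.2% of all genes higher and 14.1% lower) and with limma-voom at 10 fragments. In P56-NPCs over ASTs there were 2, and 2 with no filter, where Ciita took the place of H2-Ab1, then 4 with all 4 groups in the model and with limma-voom without P56-NPC replicate 3, and 1 (without any single AST) to 4 (without P56-NPC replicate 2) when leaving out a sample. In P0-NPCs over ASTs 0 became 2 with no filter and 3 with limma-voom at 10 fragments. In A-iSCs over P56-NPCs 0 became 1 with all 4 groups and without P56-NPC replicate 2 (H2-Eb1, lower), and without replicate 3 by limma or limma-voom (H2-Ab1, higher). In A-iSCs over P0-NPCs 2 became 3 with no filter and 4 with limma-voom at 10 fragments. In P56-NPCs over P0-NPCs 2 became 1 with no filter or library size scaling and 4 with a pseudocount of 0.1, all 4 groups, and limma-voom with either filter or without P56-NPC replicate 3, with a range of 1 (without any single P0-NPC) to 4 (without P56-NPC replicate 2) when leaving out a sample. Since the filter set which members were tested, part of these moves follows from how many members entered. Of the 5 genes most like the chains, 0 remained with a pseudocount of 0.1, with Spearman's correlation and without P56-NPC replicate 2 or 3, and 3 without A-iSC replicate 3, the lowest of the rest. Counts of all genes called in either direction stayed within 1.5 times in every setting, unlike those in 1 direction (next paragraph) and the share of genes called, since 30439 genes were tested with no filter in A-iSCs over ASTs against 14087 before.

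Among 264 recomputed member values 213 kept direction and side of the threshold, 40 came to pass it, 9 no longer passed and 2 reversed. The reversed ones, neither called in its reversed direction, were H2-Aa in A-iSCs over P56-NPCs, 0.29 by limma-voom without P56-NPC replicate 3, and H2-Ab1 there, which by limma on FPKM ranged from -0.17 without P56-NPC replicate 2 to 0.79 without P56-NPC replicate 3, where it was called, and was 1.27 by limma-voom without P56-NPC replicate 3. H2-DMa in A-iSCs over ASTs reversed to -0.013 (upper-quartile scaling) and -0.073 (without A-iSC replicate 1), neither called. Ctsl in P56-NPCs over P0-NPCs reversed to -0.37 with library size scaling and was called there (adjusted p = 0.0025). The cause was not tested. Library size scaling moved the median of all genes from -0.06 to 0.13 in A-iSCs over ASTs, from -0.03 to -0.34 in P56-NPCs over ASTs, from -0.07 to 0.21 in P0-NPCs over ASTs, from 0.03 to 0.49 in A-iSCs over P56-NPCs and from 0.01 to -0.53 in P56-NPCs over P0-NPCs. With it, 31.9% of genes were higher and 20.9% lower in A-iSCs than in ASTs, against 25.2% and 29.6%. The higher and lower shares became 31.2% and 51.6% in P56-NPCs over ASTs (39.1% and 39.8% before), 46.3% and 31.6% in P0-NPCs over ASTs, 55.9% and 19.2% in A-iSCs over P56-NPCs, and 22.3% and 61.2% in P56-NPCs over P0-NPCs. limma-voom was not rerun without single samples other than P56-NPC replicate 3.

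Same-numbered samples of 2 groups deviated together with correlations of -0.38, 0.34 and 0.43 in A-iSCs and ASTs and -0.14 to 0.10 elsewhere. Samples with unlike numbers were not compared, so these values do not decide whether the numbers pair the samples. With the replicate number as a block, 2, 3, 0, 0, 2 and 3 members were called in the comparisons A-iSC over AST, P56-NPC over AST, P0-NPC over AST, A-iSC over P56-NPC, A-iSC over P0-NPC and P56-NPC over P0-NPC, and 7944, 11587, 11654, 8435, 9406 and 12076 genes. Depth limits Ciita and H2-Aa most in ASTs, where they had 1 to 7 and 0 to 10 fragments per sample.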
